A study of Oncorhynchus mykiss with 24 samples.

Results

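The maternal transcripts zar1, mos, figla and bmp15 were followed in the animal and the vegetal section of trout hybrid eggs and embryos, from fertilization to the mid-blastula. They were taken from the count table as every row, of either parental species, that carried 1 of the 4 symbols, and 4 of its 32765 rows did so. All 4 rows belong to the maternal species Oncorhynchus mykiss (rainbow trout), as mos, figla and bmp15 under their own symbols and zar1 as LOC100136720, which the deposited ortholog table pairs with zebrafish zar1. Of the 9992 rows of the paternal species Salvelinus fontinalis (brook trout), 0 carried one of these symbols, so paternal copies were not analysed here. RefSeq lists a further O. mykiss gene under the symbol zar1, which was not analysed here.

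Every group in the study is the same cross, an O. mykiss egg fertilized with S. fontinalis sperm, apart from the 0 hours post fertilization (hpf) samples, labelled at once as unfertilized and as just fertilized eggs. The 1 hpf labels name both a 1-cell egg and early cleavage, the 1 day post fertilization (dpf) labels an early blastula of about 32 to 64 cells, and the 3 dpf labels a mid-blastula of about 1000 cells. Each egg was cut across the animal-vegetal axis (TOMO-seq, in which sections along 1 axis are sequenced separately) into section A, on the animal side, on which the blastomeres sit, and section B, on the vegetal, yolky side. Each section had 2 libraries at the first and the last stage and 3 at each stage between, 20 of the 24 labelled samples. Where the labels do not say that replicates came from separate females, p-values measure the spread between these libraries. The main tests hold no term for the egg, so the sections of 1 egg enter them as separate libraries.

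All 4 genes are known from the growing oocyte. Zar1 is an RNA-binding protein that holds stored maternal mRNAs back from translation. Mos is a kinase that switches on MAP kinase and keeps the mature egg of frogs and mice arrested in meiosis. Figla is a transcription factor that in the mouse oocyte drives the egg coat genes. Bmp15 is a growth factor of the TGF-beta family, secreted by the oocyte and acting on the follicle cells around it, partly as a dimer with Gdf9. Such transcripts are laid down before ovulation, and in fish embryos much of the maternal store is degraded as the embryo starts to transcribe its own genome.

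Library totals ran from 5011274 to 9986001 counts. S. fontinalis genes took 22.5% to 24.0% of the counts in section A at 3 dpf and 0.927% to 1.08% in the 18 other libraries. Levels below are CPM, counts scaled to a common library size, scaled with edgeR's trimmed mean of M values (TMM) factors, so each is a share of the library's RNA and not an amount per egg. In such bulk samples fewer cells with a transcript and less of it per cell cannot be told apart. With these factors the median O. mykiss gene lay at a log2 fold change of −0.29 in section A at 3 dpf against 0 hpf and at −0.33 against 1 dpf, and changes in that section are best read against those values. The section A libraries at 3 dpf thus stand apart from the rest, and results of the 4 genes that rest on them, and counts set beside them, are also given with TMM factors computed on O. mykiss genes.

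In the animal section 3 of the 4 transcripts fell by 3 dpf, and bmp15 was not called. zar1 stood at 35.5%, mos at 44.6% and figla at 42.3% of their mean level at 0 hpf, while bmp15 stood at 99.4%. In the vegetal section at 3 dpf, 0 of the 4 differed from 0 hpf by the test. The quasi-likelihood test of edgeR, with p-values adjusted after Benjamini and Hochberg, called 3 of 4 lower in section A at 3 dpf against 0 hpf, where it called 19.7% of all O. mykiss genes lower, and the same 3 of 4 against 1 dpf, where it called 23.2% lower and 11.7% higher. With TMM factors computed on O. mykiss genes the same 3 of 4 were called lower in both, but the balance over all O. mykiss genes turned, to 9.84% lower and 15.1% higher against 0 hpf and to 12.2% lower and 17.1% higher against 1 dpf. In section B it called 0 of 4 in either direction against 0 hpf (0.132% of O. mykiss genes lower, 0.123% higher). Over genes of both species 3562 had an unadjusted p under 0.05 in that comparison, and DESeq2 called 1129. Against 1 dpf the edgeR test called 0 of 4 and 0 genes in all, with 1903 at an unadjusted p under 0.05, and DESeq2 called 59. Between the earlier stages 0 of 4 were called in either section. The test called 0% of O. mykiss genes at these steps, apart from 0.0044% lower in section B from 0 hpf to 1 hpf. In section A 3170 and 2317 genes of both species had an unadjusted p under 0.05 at these steps, and DESeq2 called 369 and 100. In section B 4890 had such a p from 0 hpf to 1 hpf and 2756 from 1 hpf to 1 dpf, and DESeq2 called 1391 and 86.

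**Figure D1:**
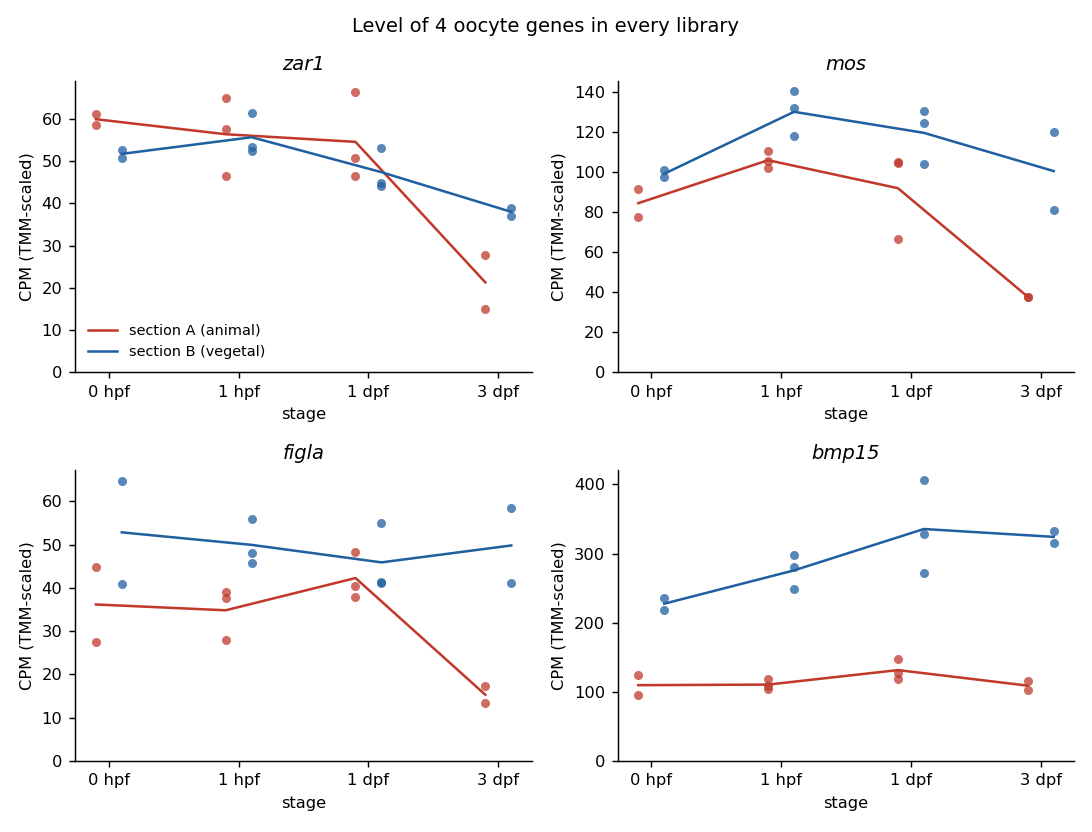
Level of each gene in every library, in CPM on a linear axis from 0, by stage; points are libraries, lines join the group means, red is section A and blue section B. The section A points of zar1, mos and figla at 3 dpf lie below every earlier section A point, whereas the bmp15 points at 3 dpf, 102 and 115 CPM, lie within the earlier range.

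zar1 measured 61.3 and 58.6 CPM in section A at 0 hpf. It measured 46.4, 65.0 and 57.7 CPM there at 1 hpf and 46.4, 50.9 and 66.4 CPM at 1 dpf. At 3 dpf the same section held 14.9 and 27.7 CPM. Both 3 dpf libraries lay below all 8 earlier ones (share of O. mykiss genes not counted, here or for the genes below), and the earlier stages overlapped each other. The log2 fold change from 0 hpf came to −1.50 ± 0.25 (SE; adjusted p = 0.000201), and that from 1 dpf was −1.36 ± 0.24 (adjusted p = 0.000173). Between the 2 earlier steps of section A, 0 hpf to 1 hpf and 1 hpf to 1 dpf, the log2 fold changes were −0.09 ± 0.22 and −0.05 ± 0.20.

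In section B zar1 measured 52.7 and 50.7 CPM at 0 hpf, and 52.3, 61.4 and 53.4 CPM at 1 hpf. It measured 53.2, 44.9 and 44.1 CPM at 1 dpf. At 3 dpf it measured 37.0 and 39.0 CPM, below every earlier vegetal library. That vegetal difference was not called, at a log2 fold change of −0.45 against 0 hpf with a 95% interval from −0.96 to 0.07 (adjusted p = 0.542). Of the 8 group means the highest was section A at 0 hpf (60.0 ± 1.90 CPM, SD, n = 2) and the lowest section A at 3 dpf (21.3 ± 9.08, n = 2), with section B at 3 dpf next above it (38.0 ± 1.41, n = 2). The other 5 means, from 47.4 ± 5.02 in section B at 1 dpf (n = 3) to 56.4 ± 9.39 in section A at 1 hpf (n = 3), had neighbours within their spread.

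mos, the meiotic kinase gene, measured 77.6 and 91.5 CPM in section A at 0 hpf. It measured 105, 102 and 111 CPM there at 1 hpf and 104, 105 and 66.8 CPM at 1 dpf. At 3 dpf both animal libraries held 37.7 and 37.8 CPM, below all 8 earlier ones. The fall was a log2 fold change of −1.16 ± 0.22 against 0 hpf (adjusted p = 0.00054) and −1.29 ± 0.21 against 1 dpf (adjusted p = 9.26e-05). The third 1 dpf library, at 66.8 CPM, was the lowest before 3 dpf. From 0 hpf to 1 hpf the log2 fold change was 0.33 ± 0.20 in section A and 0.39 ± 0.20 in section B, neither called.

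The vegetal mos level was 101 and 97.5 CPM at 0 hpf, and 141, 118 and 132 CPM at 1 hpf. It was 125, 130.4 and 104 CPM at 1 dpf, then 120.3 and 81.0 CPM at 3 dpf. The 3 dpf libraries straddled those of 0 hpf, with a log2 fold change of 0.02 and a 95% interval from −0.44 to 0.47 (adjusted p = 1). In order of group means mos was highest in section B at 1 hpf (130.3 ± 11.3 CPM, SD, n = 3) and 1 dpf (119.8 ± 13.9, n = 3), which overlapped. Sections A at 1 hpf (106 ± 4.25, n = 3), B at 3 dpf (100.6 ± 27.8, n = 2), B at 0 hpf (99.3 ± 2.52, n = 2), A at 1 dpf (92.0 ± 21.9, n = 3) and A at 0 hpf (84.5 ± 9.77, n = 2) followed within their spread. Section A at 3 dpf (37.7 ± 0.0566, n = 2) lay far below them.

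figla, the transcription factor gene, varied widely between replicates of the egg. In section A it measured 27.5 and 44.9 CPM at 0 hpf, 38.9, 27.9 and 37.6 CPM at 1 hpf, and 48.4, 40.5 and 38.0 CPM at 1 dpf. At 3 dpf it measured 13.4 and 17.2 CPM, again below all 8 earlier animal libraries. The log2 fold change was −1.24 ± 0.30 against 0 hpf (adjusted p = 0.00245) and −1.47 ± 0.28 against 1 dpf (adjusted p = 0.000345). Without replicate 2 of section A at 0 hpf the first was −0.85 and not called (adjusted p = 0.0539).

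In section B figla measured 64.8 and 40.9 CPM at 0 hpf, and 45.7, 56.0 and 48.2 CPM at 1 hpf. It measured 41.4, 41.2 and 55.1 CPM at 1 dpf and 41.2 and 58.5 CPM at 3 dpf. The vegetal libraries of all stages overlapped, and the change from 0 hpf to 3 dpf was −0.08 on the log2 scale, with a 95% interval from −0.67 to 0.51 (adjusted p = 1). The 4 vegetal means, from 45.9 ± 7.97 CPM (SD, n = 3, 1 dpf) to 52.9 ± 16.9 (n = 2, 0 hpf), lay above the 3 earlier animal means, from 34.8 ± 6.02 (n = 3, 1 hpf) to 42.3 ± 5.45 (n = 3, 1 dpf), and neighbours in that order differed by less than their spread. The animal mean at 3 dpf was the lowest, at 15.3 ± 2.71 CPM (n = 2).

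bmp15, the growth factor gene, measured 94.7 and 124 CPM in section A at 0 hpf, 104, 119 and 109 CPM at 1 hpf, and 128, 119 and 147 CPM at 1 dpf. At 3 dpf it measured 102 and 115 CPM, inside the range of the 0 hpf libraries but below every 1 dpf library. The log2 fold change was −0.01 ± 0.19 against 0 hpf, with a 95% interval from −0.41 to 0.39 (adjusted p = 0.974), and −0.27 ± 0.18 against 1 dpf (adjusted p = 0.217). With TMM factors computed on O. mykiss genes these were 0.30 and 0.04, so neither sign is settled. With plain library totals the fall from 1 dpf was −0.44 and called (adjusted p = 0.0497).

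Its vegetal level was 236 and 219 CPM at 0 hpf, and 298, 280.0 and 249 CPM at 1 hpf. It was 272, 329 and 406 CPM at 1 dpf and 316 and 333 CPM at 3 dpf. Both 3 dpf libraries lay above both 0 hpf ones, with a log2 fold change of 0.51 ± 0.19 that was not called (adjusted p = 0.298), although DESeq2 called it at 0.55 (adjusted p = 0.0481). The 4 vegetal means, from 227 ± 12.2 CPM (SD, n = 2, 0 hpf) to 335 ± 67.1 (n = 3, 1 dpf), all exceeded the 4 animal means, from 109 ± 9.40 (n = 2, 3 dpf) to 131 ± 14.7 (n = 3, 1 dpf). Within section B the libraries of 0 hpf, 1 hpf and 3 dpf lay in that order without overlap, and those of 1 dpf overlapped both 1 hpf and 3 dpf, but no step was called. The animal means of 0 hpf, 1 hpf and 3 dpf differed by less than their spread.

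**Figure D2:**
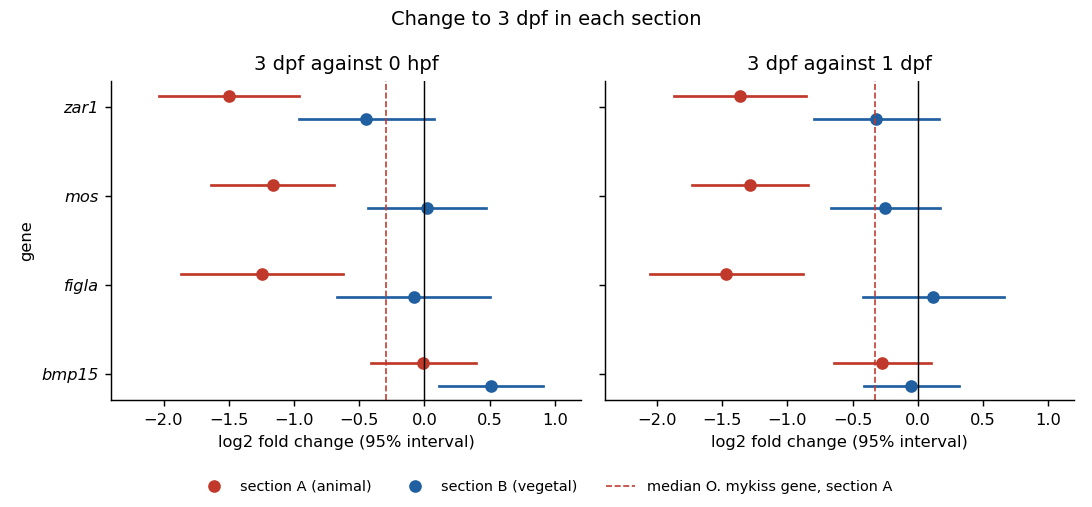
Log2 fold change to 3 dpf from 0 hpf (left) and from 1 dpf (right) with 95% intervals, section A in red and section B in blue; the dashed line is the median O. mykiss gene in section A. The section A intervals of zar1, mos and figla lie wholly below that median, those of bmp15 include it, and every section B interval but that of bmp15 against 0 hpf includes 0.

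Whether the fall differed between the sections was tested directly, as the change in section A minus the change in section B. From 1 dpf to 3 dpf section A fell further for figla (−1.59 ± 0.37, log2 scale, adjusted p = 0.00684), zar1 (−1.05 ± 0.32, adjusted p = 0.0288) and mos (−1.03 ± 0.28, adjusted p = 0.016), where 10.9% of O. mykiss genes were called the same way and 4.72% the other, a balance that turned to 4.63% and 7.14% with O. mykiss factors. For bmp15 the difference was −0.22 ± 0.25 (adjusted p = 0.654). From 0 hpf to 3 dpf it was −1.18 ± 0.31 for mos (adjusted p = 0.0151) and −1.05 ± 0.35 for zar1 (adjusted p = 0.0462), and −1.16 ± 0.41 for figla, which was not called (adjusted p = 0.0561), with 8.27% of O. mykiss genes called lower and 4.49% higher (3.63% and 6.27% with O. mykiss factors). bmp15 had −0.52 ± 0.27 there (adjusted p = 0.209). These calls rested on few libraries, figla from 1 dpf excepted, which held without any 1 library. The zar1 call from 1 dpf was lost without replicate 1 of section A at 3 dpf (−0.66), replicate 3 of section A at 1 dpf (−0.88), replicate 2 of section B at 1 dpf (−1.01) or replicate 2 of section B at 3 dpf (−1.01). The mos call from 1 dpf was lost without replicate 1 of section A (−1.03) or of section B (−0.73) at 3 dpf, and that from 0 hpf without replicate 2 of either section at 0 hpf (−1.06 and −1.16) or replicate 1 of section B at 3 dpf (−0.89). The zar1 call from 0 hpf was lost in 13 of 20 such fits (log2 values from −1.57 to −0.67 over all of them), and figla from 0 hpf was called with same-numbered sections as a block (−1.15, adjusted p = 0.0362), a fit that pairs the 0 hpf sections although their numbers did not deviate together. Of the 4476 O. mykiss genes called lower in section A against 0 hpf, 1710 (38.2%) were also called lower in this test. Of the 5262 called lower against 1 dpf, 2398 (45.6%) were. Both tests use the same section A libraries at 3 dpf, which builds in part of this overlap. It was not counted with O. mykiss factors, under which this test called 824 genes lower from 0 hpf and 1052 from 1 dpf.

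With TMM factors computed on O. mykiss genes, under which the median O. mykiss gene in section A lay at 0.02 against 0 hpf, the falls from 0 hpf in section A were −1.19 for zar1 (adjusted p = 0.00108), −0.85 for mos (adjusted p = 0.00485) and −0.93 for figla (adjusted p = 0.0144). The test between sections from 1 dpf to 3 dpf then called figla (−1.27, adjusted p = 0.0238) and no longer zar1 (−0.73, adjusted p = 0.13) or mos (−0.72, adjusted p = 0.0953). In the authors' deposited tables, normalized within each section, the mean signal at 3 dpf over that at 0 hpf was −1.32 for zar1, −0.99 for mos, −1.07 for figla and 0.17 for bmp15 in section A on the log2 scale. The same tables gave −0.43, 0.04, −0.07 and 0.53 in section B.

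A ratio of 2 transcripts within 1 library does not depend on the scaling at all. The denominator here was bmp15, already known as the gene not called lower in section A at 3 dpf against 0 hpf. Lower ratios there thus restate the levels above without scaling and are no separate evidence of a fall. Per 100 bmp15 counts, the 8 section A libraries before 3 dpf held 36.4 to 64.7 zar1 counts, with a median of 46.1, and the 3 dpf libraries held 14.5 and 24.0. For mos the earlier libraries held 45.3 to 102 counts, with a median of 84.0, against 32.7 and 36.9 at 3 dpf. For figla they held 23.5 to 37.9, with a median of 34.4, against 13.1 and 14.9. In each of the 3 ratios the section A libraries at 3 dpf lay below all earlier ones, and how many O. mykiss genes would do so was not counted. In section B the zar1 ratio was lower at 3 dpf too, at 11.7 and 11.7 against 22.3 and 23.2 at 0 hpf and an earlier median of 20.5. Replicate 3 of 1 dpf, at 10.9, was the single earlier library below it. There bmp15 itself had a log2 fold change of 0.51 against 0 hpf (not called), so the ratio holds the changes of both genes. The mos ratio there was 24.3 and 38.1 at 3 dpf against an earlier median of 43.7 (25.7 to 53.2). The figla ratio was 13.0 and 17.6 against an earlier median of 17.0 (12.5 to 27.4).

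**Figure D3:**
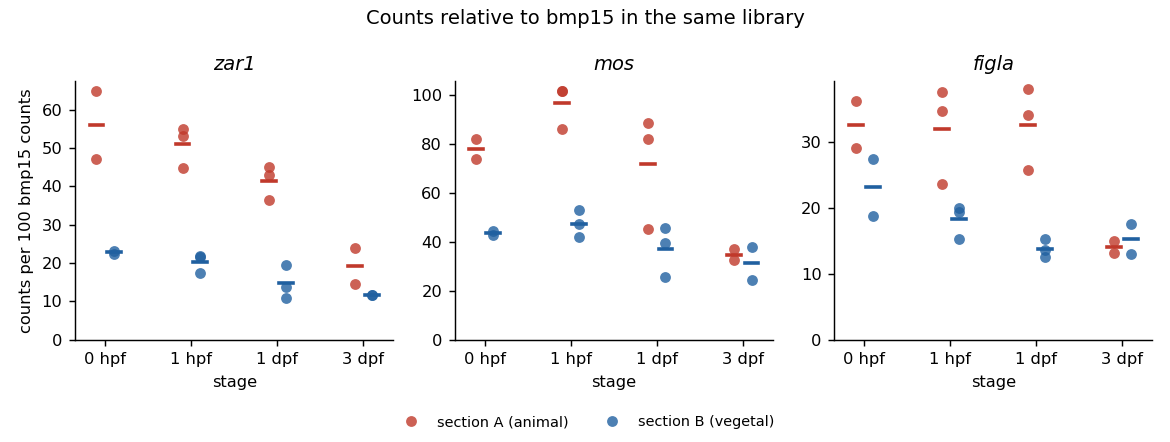
Counts of zar1, mos and figla per 100 bmp15 counts of the same library, by stage, on linear axes from 0; points are libraries, bars group means, red section A and blue section B. In section A the values drop at 3 dpf, to 14.5 and 24.0 for zar1, where the section B values are 11.7 and 11.7. The CPM of bmp15 was lower in section A than in section B at every stage, so these ratios do not compare levels between sections.

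The sections were also compared at each stage, which asks in which section a transcript takes the larger share of the RNA. It does not give amounts per section. For bmp15 the share was larger in section B at every stage. Its section A level was 48.1%, 40.0%, 39.1% and 33.6% of the section B level from the first stage to the last, with no overlap of libraries at any stage (share of O. mykiss genes not counted). The log2 fold changes were −1.05 ± 0.19 (adjusted p = 0.00269), −1.32 ± 0.16 (9.88e-06), −1.35 ± 0.16 (7.35e-06) and −1.58 ± 0.20 (7.36e-06). At 0 hpf the call was lost without replicate 1 of section A (−0.87, adjusted p = 0.117).

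At 0 hpf, 1 hpf and 1 dpf bmp15 was the 1 of 4 called lower in section A, where 3.96%, 11.8% and 13.8% of O. mykiss genes were, and 0 of 4 were called higher (1.45%, 12.5% and 14.3%). At 3 dpf all 4 were called lower, against 27.1% of O. mykiss genes (15.2% higher). With O. mykiss factors 3 of 4 were, mos at −1.10, figla at −1.39 and bmp15 at −1.26, against 18.4% of O. mykiss genes lower and 20.8% higher. zar1 in section A was at 116%, 101% and 115% of section B at the first 3 stages, none called, although at 0 hpf both animal libraries lay above both vegetal ones (share of O. mykiss genes not counted). It dropped to 56.0% at 3 dpf (log2 fold change −0.84 ± 0.26, adjusted p = 0.00928). That last call rested on replicate 1 of section A at 3 dpf, without which it was −0.46 (adjusted p = 0.161), and was also lost with O. mykiss factors (−0.53, adjusted p = 0.0851), with RLE factors (−0.57, adjusted p = 0.0689) and with the 3 dpf libraries fitted alone (−0.78, adjusted p = 0.166).

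mos in section A was at 85.2%, 81.4% and 76.9% of section B before 3 dpf, with no overlap of libraries at 0 hpf and 1 hpf (share of O. mykiss genes not counted) but no call. At 1 dpf this was −0.38 ± 0.18 on the log2 scale and not called, but a fit with same-numbered sections as a block gave −0.40, which was called (adjusted p = 0.0458). At 3 dpf section A held 37.5% of the vegetal level (−1.41 ± 0.23, adjusted p = 7.53e-05). figla stood at 68.4%, 69.7% and 92.1% of section B at the first 3 stages, none called, and at 30.7% at 3 dpf (−1.71 ± 0.30, adjusted p = 0.000179).

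By pairs of libraries with the same replicate number, section A held 40.2% and 71.1% of the section B level of zar1 at 3 dpf, 31.3% and 46.7% of mos, 32.5% and 29.4% of figla, and 32.4% and 34.7% of bmp15. At 1 dpf the same pairs ranged from 87.4% to 150% for zar1, from 64.2% to 83.7% for mos, from 68.9% to 117% for figla and from 36.1% to 46.9% for bmp15. On this scaling both 3 dpf pairs lay below all 3 pairs of 1 dpf for each of the 4 genes. In CPM of the O. mykiss counts alone this held for zar1, mos and figla but not for bmp15. There bmp15 had 122 in section A against 281 in section B, and 142 against 322, at 3 dpf. Replicates 1, 2 and 3 of 1 dpf had 135 against 253, 128 against 319 and 156 against 400. Both 3 dpf pairs of bmp15 thus lay above replicates 2 and 3 of 1 dpf. How many O. mykiss genes separated in either way was not counted.

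**Figure D4:**
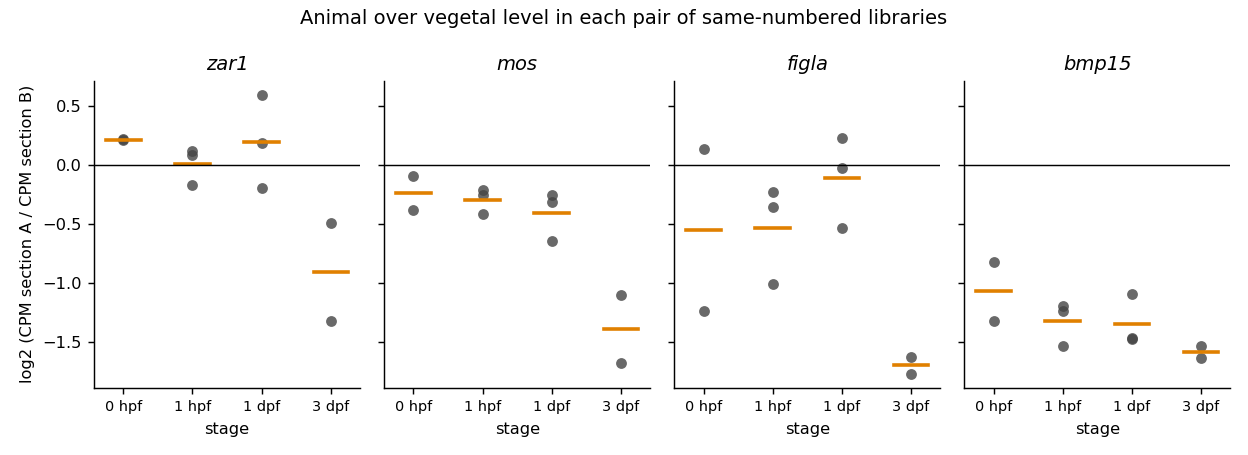
Log2 of the section A level over the section B level for each pair of libraries with the same replicate number (points) and their mean (bars), by stage. The bmp15 points lie below 0 at every stage, while the mean bars of zar1, mos and figla lie nearer 0 than those of bmp15 before 3 dpf and drop at 3 dpf. Single figla points before 3 dpf reach −1.24, at 0 hpf, where the pairing by number is doubtful.

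The eggs were divided into 3 clusters by their O. mykiss counts, a number that was imposed and not found. The division was made in section B with the 4 genes left out. Section A, also cut into 3, gave the same division for the 8 eggs before 3 dpf. Cluster 1 held both 0 hpf eggs, replicate 3 of 1 dpf and replicate 2 of 3 dpf. Cluster 2 held replicate 1 of 1 hpf, replicates 1 and 2 of 1 dpf and replicate 1 of 3 dpf, and cluster 3 the other two 1 hpf eggs. Whether the clusters are females, batches or something else is not given in the labels. The eggs of 0 hpf and 1 hpf share no cluster. In a direct comparison of these stages, stage and cluster thus cannot be told apart. In section A the 3 dpf egg lay below the earlier mean of its own cluster by log2 values of −1.17 and −1.69 (clusters 1 and 2) for zar1, −1.06 and −1.48 for mos, and −1.10 and −1.67 for figla. For bmp15 these were −0.08 and −0.19. In section B they were −0.34 and −0.44 for zar1, −0.32 and −0.13 for mos, 0.13 and −0.05 for figla, and 0.21 and 0.07 for bmp15. Each of these log2 values rests on 1 egg at 3 dpf, so there is no test within a cluster. They were not computed with O. mykiss factors. In CPM of the O. mykiss counts alone, bmp15 in section A at 3 dpf lay within the earlier values of its cluster. It had 142 against 100, 133 and 156 in cluster 1, and 122 against 110, 135 and 128 in cluster 2.

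Genes related to bmp15 and zar1 were looked at next, chosen after their values were seen. Both copies of gdf9, whose protein pairs with Bmp15, also had a larger share in section B at every stage. At 0 hpf the copy gdf9 had 142 ± 0.0438 CPM on the animal side against 274 ± 52.4 on the vegetal (SD, n = 2), and at 3 dpf 144 ± 59.8 against 373 ± 32.2 (n = 2). Its section A level was lower at all 4 stages (log2 −0.94, −0.92, −0.90 and −1.38, with adjusted p = 0.029, 0.00224, 0.00225 and 0.000182). The copy LOC110489166 was lower by −0.93, −1.01, −0.90 and −1.20 (adjusted p = 0.0183, 0.00051, 0.00116 and 0.000282). In section A neither differed from 0 hpf at 3 dpf by the test (0.02 ± 0.24, adjusted p = 0.962, and 0.21 ± 0.22, adjusted p = 0.462). How alike the copies are was not tested and how shared reads were counted is not given in the sources used here, so the division between the 2 rows is uncertain. With O. mykiss factors both stayed lower in section A at 3 dpf (−1.07 and −0.89), and neither change from 0 hpf was called (0.33 and 0.52).

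zar1l, a paralog of zar1, was higher in section A at 1 hpf and 1 dpf. Whether it differed from zar1 in this was not tested. At 1 hpf its level was 387 ± 11.03 CPM on the animal side against 164 ± 19.5 on the vegetal (SD, n = 3; log2 fold change 1.24 ± 0.27, adjusted p = 0.00299), and 377 ± 29.8 and 134 ± 33.0 at 1 dpf (n = 3; 1.49 ± 0.28, adjusted p = 0.000619). At 0 hpf (0.58 ± 0.33) and 3 dpf (0.28 ± 0.33) the sections did not differ by the test. In section A it fell to 181 ± 94.6 CPM at 3 dpf (n = 2), by −1.06 ± 0.31 against 1 dpf (adjusted p = 0.00797). The 2 animal libraries at 3 dpf were thus far apart. The difference of this fall from section B was −1.21 ± 0.43 and not called (adjusted p = 0.0538). With O. mykiss factors the fall from 1 dpf was −0.75 (adjusted p = 0.0471). Against 0 hpf zar1l had −1.03 ± 0.33 in section A (adjusted p = 0.0158) and −0.73 ± 0.33 in section B (adjusted p = 0.424). The difference between these was −0.30 ± 0.47 and not called (adjusted p = 0.806). With O. mykiss factors the section A fall from 0 hpf was −0.73 and not called (adjusted p = 0.0788).

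**Figure D5:**
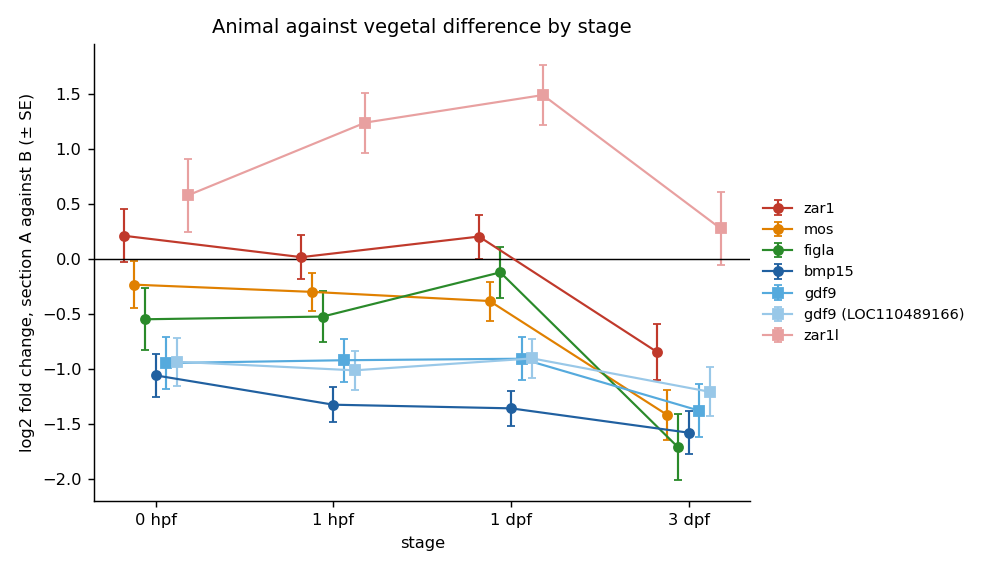
Log2 fold change of section A against section B at each stage, with SE bars, for the 4 genes (circles), both gdf9 copies and zar1l (squares). bmp15 and both gdf9 copies lie between −0.90 and −1.58 at every stage, zar1l lies above 0, and zar1, mos and figla reach −0.84, −1.41 and −1.71 at 3 dpf.

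Among 17787 genes with a symbol, those whose 8 group means were most like each gene's were found by the root mean square difference of centred log2 CPM. For zar1 they were xkr5a, tmem259 and vatf (0.07, 0.08 and 0.08), and for mos sfmbt2, fbxl14b and usp2b (0.05, 0.07 and 0.08). For figla they were cdk5, mal2 and st3gal4 (0.10 each), and for bmp15 rab3aa, dnajb11 and prkaa1 (0.08, 0.09 and 0.09). The level of st3gal4 was low, with group means from 1.86 to 7.76 CPM, so the pseudocount of 0.5 CPM weighs on its likeness. Among the 4 genes themselves mos and figla were closest (0.21), then zar1 and mos (0.29) and zar1 and figla (0.35). bmp15 lay 0.51 from figla, 0.56 from mos and 0.79 from zar1.

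The genes that act with these 4 were counted next, on O. mykiss rows in section A at 3 dpf against 0 hpf, where 19.7% of all O. mykiss genes were lower and 10% higher, with a median log2 fold change of −0.29. With O. mykiss factors 9.84% were lower and 15.1% higher, with a median of 0.02, and each list's counts on that scale are given beside its own. Of 9 rows of egg coat genes, a class that Figla drives in the mouse oocyte, 2 fell and 0 rose (median −0.53). With O. mykiss factors 0 fell and 0 rose (median −0.22). The 2 that fell were zp3a.1 (−1.42 ± 0.49, adjusted p = 0.0248, and −1.10, adjusted p = 0.078, with O. mykiss factors) and the zp3b copy LOC118941177 (−1.28 ± 0.42, adjusted p = 0.0179, and −0.96, adjusted p = 0.0772). In section B the first had −1.50 and was not called (adjusted p = 0.235), and the second had 0.03.

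Of 11 rows of other oocyte transcription factors 4 fell and 3 rose (median 0.21), or 2 and 4 with O. mykiss factors (median 0.53), under which lhx8a was not called. gtf3ab, a copy of transcription factor IIIA, fell by −1.91 ± 0.26 (adjusted p = 3.33e-05), foxr1 by −1.33 ± 0.40 (adjusted p = 0.01) and lhx8a, an oocyte homeobox gene, by −0.74 ± 0.23 (adjusted p = 0.0117). tcf3a, whose mammalian relatives encode dimer partners of Figla, rose by 3.75 ± 0.42 (adjusted p = 5.16e-06), and both copies of ybx1, a Y-box protein that binds stored mRNA, rose by 1.29 ± 0.22 and 0.71 ± 0.16 (adjusted p = 0.000211 and 0.00145).

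Of 27 rows of Zar1 partners and other proteins of masked mRNA, 5 fell and 7 rose (median −0.04), or 4 and 11 with O. mykiss factors (median 0.27). Of all O. mykiss genes 19.7% fell and 10% rose, or 9.84% and 15.1% with O. mykiss factors. This list shares ybx1 with the list before it, so both ybx1 copies are counted again among those that rose. pabpc1l, the egg form of poly(A)-binding protein, which the list of other egg-enriched genes also holds, fell by −1.66 ± 0.34 (adjusted p = 0.00094), while pabpc1a, a general form, rose by 1.92 ± 0.25 (adjusted p = 1.99e-05). lsm14b and lsm14aa, of the Lsm14 family found in stored mRNA particles, fell by −1.28 ± 0.16 and −1.18 ± 0.21 (adjusted p = 1.48e-05 and 0.00032). igf2bp3, an mRNA-binding protein gene, rose by 2.05 ± 0.22 (adjusted p = 2.86e-06), and the ddx61 row rose by 4.404 ± 1.16 (adjusted p = 0.00453) from 5 and 6 counts to 72 and 53.

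Of 40 rows of the Mos kinase pathway and meiotic arrest, 14 fell and 3 rose (median −0.37), or 6 and 7 with O. mykiss factors (median −0.06). Rows under the same symbol, called copies here, moved in opposite directions for wee1 and for cdc25b. The deposited ortholog table gave these rows their symbols, and how alike they are was not tested. The wee1 copy LOC110492278, of a kinase that holds back entry into M phase, fell by −1.50 ± 0.33 (adjusted p = 0.00133), while the copies LOC110526567 and LOC110506698 rose by 3.35 ± 0.72 and 1.79 ± 0.42 (adjusted p = 0.0012 and 0.00226). The cdc25b copy LOC110510100, of the phosphatase that opposes Wee1, fell by −1.52 ± 0.18 (adjusted p = 7.56e-06), and the copy LOC110498311 rose by 0.61 ± 0.23 (adjusted p = 0.0394). rps6ka2, a kinase of the Rsk family that MAP kinase activates, fell by −1.74 ± 0.56 (adjusted p = 0.0155).

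Of 25 rows of Bmp15 and Gdf9 signaling 5 fell and 4 rose (median −0.18), or 2 and 6 with O. mykiss factors (median 0.14), under which the acvr1l copy LOC110520052 was not called. The counts that fell lay near the shares of all O. mykiss genes, 19.7% lower, or 9.84% with O. mykiss factors. Of all these genes 10% rose, or 15.1% with those factors. Those that fell included receptors, a class that makes up much of this list, acvr2aa (−1.81 ± 0.31, adjusted p = 0.000203) and both copies of acvr1l (−1.05 ± 0.24 and −0.69 ± 0.16, adjusted p = 0.00187 and 0.0024). Those that rose included tgfbr1b, also a receptor (2.27 ± 0.60, adjusted p = 0.00455), and the inhibitory Smad gene smad6b, from 7 and 2 counts to 76 and 145 (adjusted p = 0.00474). smad7 had 0 counts in both section A libraries at 0 hpf and 19 and 64 at 3 dpf, at least 27.6-fold higher against a floor of 3 counts per library, or 11.5-fold and 43.7-fold by the first and the second 3 dpf library alone (adjusted p = 0.00351). That floor covers counting error only.

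Of 35 rows of other egg-enriched maternal genes 14 fell and 1 rose (median −0.38), or 6 and 1 with O. mykiss factors (median −0.06). npm2b, an egg chromatin protein gene, fell by −2.24 ± 0.49 (adjusted p = 0.00138) and btg4, which helps remove poly(A) tails from maternal mRNA in the mouse, by −1.77 ± 0.30 (adjusted p = 0.000216). dazl, a germ plasm RNA-binding protein gene, rose by 1.07 ± 0.35 (adjusted p = 0.0176). In section B at 3 dpf against 0 hpf, 1 row of these 6 lists was lower, in this last one, and 0 were higher.

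Markers of other cells were checked in the same libraries. Of 24 symbols of ovarian follicle cells 4 had a row, and their summed level was 360 to 403 CPM in section A at 3 dpf and 37.8 to 138 CPM elsewhere. The excess was an S. fontinalis row named fshr, at 282 and 355 CPM there and at most 0.126 CPM elsewhere, while the O. mykiss rows col1a1a and col1a2 stayed within the range of the other libraries and nr5a1b, at 1.11 and 1.26 CPM, lay below it (1.85 to 5.91). Of 16 blood symbols the single row, S. fontinalis epb41b, had 56.1 to 69.7 CPM in section A at 3 dpf and 0 to 1.25 CPM elsewhere. Of 20 sperm and testis symbols 5 had a row, all of O. mykiss, the maternal species. Their summed level was 50.7 to 51.2 CPM in section A at 3 dpf and 14.6 to 38.0 CPM elsewhere. Above their range were cfap52 (8.60 and 9.47 against at most 1.36 CPM) and odf2a (23.1 and 26.0 against at most 2.23 CPM). The rows dnah1 and spata17 stayed within the range of the other libraries. ropn1l did not exceed its range either (5.246 and 7.798 against 5.881 to 16.08 CPM). The part of these changes in the results was not tested.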

How the data were processed

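RNA of 20 egg-section libraries was sequenced after rRNA depletion with a directional kit, per the labels' protocols. The labels give 24 samples; replicate 3 of both sections at 0 hpf and 3 dpf was not analysed here. The authors deposited raw counts per gene, and normalized signal tables per section, in which each value is the count divided by 1 size factor per library (checked to 1e-06). The submitters' processing notes name STAR 2.7.11, HTSeq 2.0.4, fastp 0.23.4 and DESeq2; their settings, the genome build and the strand setting are not given in the sources used here. All 22773 O. mykiss identifiers matched RefSeq.

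The counts were tested with edgeR 4.0.16 (R 4.3.3, limma 3.58.1), with TMM factors, its expression filter, 8 stage-by-section groups fitted together and quasi-likelihood tests for 14 comparisons. Benjamini-Hochberg adjustment ran over all 32502 tested genes, with a threshold of 0.05. The script was tested on simulated data. DESeq2 1.42.0, other factors, no filter, fewer groups, replicate blocks and leaving out each library were alternatives. The clusters of eggs and crossed numbers were added after seeing the data. Likeness used a pseudocount of 0.5 CPM.

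The members, lists and tests were chosen with earlier results of these data known. Named from each list were up to 3 genes called in each direction with the largest change in section A at 3 dpf against 0 hpf; gdf9 and zar1l fall outside this rule. Same-numbered sections deviated together at 1 hpf (r = 0.71, 0.42 and 0.58 over 14562 genes) and 1 dpf (0.37, 0.57 and 0.66), so numbers were taken as pairs there. With 2 replicates a section, r was 0.46 at 3 dpf and −0.245 at 0 hpf. Pairs by number are shown at these 2 stages too, and at 0 hpf they are doubtful. At 1 hpf replicate 3 of section A also correlated with replicate 2 of section B (0.50), and 2 with 3 (0.36). Replicates 2 and 3 of that stage are thus not told apart in this way.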

Additional observations from a re-analysis of the deposited data

Results flagged for a closer look

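For 3 of the 4 genes the change to 3 dpf differed between the sections by the interaction test of edgeR's quasi-likelihood fit. From 1 dpf the section A change minus the section B change was −1.59 ± 0.37 (SE, log2 scale) for figla, −1.05 ± 0.32 for zar1 and −1.03 ± 0.28 for mos. From 0 hpf it was −1.18 ± 0.31 for mos and −1.05 ± 0.35 for zar1. Of all O. mykiss genes 10.9% were called lower and 4.72% higher from 1 dpf, and 8.27% and 4.49% from 0 hpf. In section A every 3 dpf library lay below every earlier one for each of these genes. How many O. mykiss genes separated in that way was not counted. S. fontinalis counts made up 22.5% to 24.0% of the section A libraries at 3 dpf, and the part of that share in these values was not tested. When scaled on O. mykiss genes, only the figla difference from 1 dpf was called (−1.27). The shares of O. mykiss genes called were then 4.63% lower and 7.14% higher from 1 dpf, and 3.63% and 6.27% from 0 hpf.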

How the results depend on the processing

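The falls of zar1, mos and figla in section A at 3 dpf were called under every alternative, except figla against 0 hpf without replicate 2 of section A at 0 hpf. Of the results of the 4 genes under alternatives that kept all libraries of the comparison, 452 kept direction and call, 16 lost a call, 10 gained one and 30 changed sign. The values that changed sign were uncalled. The causes were not tested. Scaling turned the balance of lower and higher O. mykiss genes in section A at 3 dpf against 0 hpf, from 4476 and 2279 to 2361 and 3320 (RLE) and 2237 and 3422 (O. mykiss factors), and between sections at 3 dpf from 6161 and 3461 to 4412 and 4552 and to 4176 and 4733. Dropping the expression filter changed no call of the 4 genes.

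The section A against B difference of zar1 at 3 dpf lost its call with RLE factors (−0.57), O. mykiss factors (−0.53) and compared groups alone (−0.78). For the change in section A minus that in section B, the calls of zar1 from 1 dpf were lost with RLE (−0.77), O. mykiss factors (−0.73), compared groups alone (−0.94) and DESeq2 (−0.77). Those of zar1 from 0 hpf were lost with RLE (−0.80), plain totals (−1.04), O. mykiss factors (−0.76), compared groups alone (−1.04) and DESeq2 (−0.81). Those of mos were lost from 1 dpf with RLE (−0.75), O. mykiss factors (−0.72) and compared groups alone (−0.93), and from 0 hpf with O. mykiss factors (−0.89). bmp15 turned positive in section A at 3 dpf against 1 dpf (0.0121 with RLE, 0.0416 with O. mykiss factors, 0.0119 with DESeq2) and against 0 hpf (0.28, 0.30 and 0.28, and 0.0127 with compared groups alone), and in the difference from 1 dpf (0.0597, 0.0929 and 0.0599). With plain totals bmp15 in section A fell by −0.44 from 1 dpf and was called, and signs changed for figla between sections at 1 dpf (0.0226), bmp15 in section A at 1 hpf (−0.0060) and mos in section B at 3 dpf (−0.18). DESeq2 called bmp15 in section B at 3 dpf against 0 hpf (0.55).

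With same-numbered sections as a replicate block, mos between sections at 1 dpf (−0.40) and figla from 0 hpf between sections (−1.15, with the doubtful 0 hpf pairs) gained a call; it changed no other call of the 4 genes. With the replicate number as a block in stage comparisons bmp15 in section A at 1 hpf was −0.023, and at the 2 earlier steps the test called 202 and 1 genes for section A, 1611 and 4 for section B, and 411 in section B at 3 dpf against 0 hpf. Between sections at 0 hpf this block called 3037 genes against 1269, and with crossed numbers, suggested by a same-number correlation of −0.245, it called 3463.

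With the egg clusters as a term, calls were gained by figla between sections at 1 hpf (−0.52), mos at 1 dpf (−0.40) and figla from 0 hpf (−1.16). Signs changed at 1 hpf against 0 hpf for figla (0.20) and mos (−0.0217) in section A and figla in section B (0.18), at 1 dpf for zar1 in section A (0.0365), and at 3 dpf against 0 hpf for bmp15 in section A (0.12) and figla (0.0247) and mos (−0.21) in section B. With the clusters in each section, calls were gained by zar1 between sections at 1 dpf (0.63), bmp15 in section B at 3 dpf (0.66) and figla from 0 hpf (−1.38). Signs changed at 1 hpf in section A for zar1 (0.24), figla (0.082) and mos (−0.0787) and in section B for zar1 (−0.038) and figla (0.25), at 1 dpf for zar1 in section A (0.0167), and at 3 dpf for bmp15 in section A (0.10) and figla (0.13) and mos (−0.21) in section B.

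Counts of genes called between sections at 0 hpf were 3467 with compared groups alone, 2520 with DESeq2, 3325 with clusters and 4055 with clusters in each section, and at 1 hpf 9027 and 2231 with the clusters against 5926. From 0 hpf to 1 hpf in section A 824 (compared groups alone) and 369 (DESeq2) were called against 0, and in section B 666, 1391, 0 (clusters) and 2 (in each section) against 1. From 1 hpf to 1 dpf these were 100 (DESeq2) and 3 (clusters) in section A, and 1 (plain totals), 86 (DESeq2), 5 and 5 (clusters) in section B. In section B at 3 dpf they were 59 (DESeq2) and 28 (clusters in each section) against 1 dpf, and against 0 hpf 0 (compared groups alone), 1129 (DESeq2), 625 and 736 (clusters) against 58. For the difference between sections 4232 (compared groups alone) and 10015 (clusters in each section) were called from 1 dpf against 6616, and 8957 (clusters) from 0 hpf against 5696.

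Leaving out each library in turn gave these ranges. Between sections, bmp15 at 0 hpf ran from −1.26 to −0.87, figla at 1 dpf from −0.23 to 0.0336, zar1 at 1 hpf from −0.10 to 0.14 and zar1 at 3 dpf from −1.36 to −0.46. In section A at 1 hpf, bmp15 ran from −0.17 to 0.22, figla from −0.37 to 0.34 and zar1 from −0.20 to 0.0346, and zar1 at 1 dpf from −0.21 to 0.0686. In section A at 3 dpf against 0 hpf, bmp15 ran from −0.19 to 0.20 and figla from −1.56 to −0.85. In section B figla at 1 hpf ran from −0.37 to 0.29. At 3 dpf against 0 hpf figla ran from −0.38 to 0.28 and mos from −0.31 to 0.28, and against 1 dpf bmp15 from −0.18 to 0.11, figla from −0.16 to 0.33 and mos from −0.59 to 0.0064. The difference between sections from 0 hpf ran from −1.53 to −0.77 for figla, −1.44 to −0.89 for mos and −1.57 to −0.67 for zar1, and from 1 dpf from −1.29 to −0.73 for mos and −1.56 to −0.66 for zar1. Counts of genes called ran from 2837 to 6405 (difference from 0 hpf), 4010 to 6866 (from 1 dpf), 260 to 1509 (between sections at 0 hpf), 0 to 2 and 0 to 22 (earlier steps in section A), 0 to 110 and 0 to 192 (in section B), and 2 to 656 and 0 to 2 (section B at 3 dpf against 0 hpf and 1 dpf). With 2 libraries a group, a group left with 1 is assumed to vary like the others.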
